A study of Mus musculus with 3 samples.

Results

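The NF-kappaB subunits and inhibitors were followed as 9 genes in mouse embryonic stem cells whose translation had been blocked. The genes were chosen by symbol, with earlier results of these data known, and are 9 of the 32285 genes listed in the deposited matrices. They are Nfkbia, Nfkbib and Nfkbie, which encode inhibitors of the I-kappaB family, Nfkb1, Nfkb2, Rela and Relb, which encode subunits of the transcription factor, Tnfaip3, which encodes the ubiquitin-editing inhibitor A20, and Ier3, an immediate early gene. Single-cell RNA sequencing had been carried out on E14 cells, an embryonic stem cell line of 129/Ola background, kept with serum and leukemia inhibitory factor.

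There were 3 groups with 1 library each. The first group received 250 µg/mL cycloheximide, an inhibitor of translation elongation, for 3 h, and the second received the same dose for 6 h, both in 0.007% ethanol. The control group received ethanol alone for 6 h, so the 3 h library has no control of matched time. Treatment in all groups began 24 h after seeding, and all cells were trypsinized, frozen and thawed before droplet capture with 10x Genomics 3' v3 chemistry. Every group thus came from 1 line, and nothing in the labels describes a repeat culture.

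NF-kappaB is a family of dimers of Rel proteins. In resting cells I-kappaB proteins hold the dimers in the cytoplasm. When I-kappaB kinase marks them, the proteasome destroys the inhibitors, and the freed dimers enter the nucleus and bind kappaB sites. Nfkbia and Tnfaip3 are textbook targets of the factor and, once translated, feed back to restrain it. The pathway is best known from immune cells, and it is held at low activity in pluripotent stem cells.

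After cycloheximide, 4 of the 9 genes had a level at least 2-fold above the control library at both times, namely Nfkbia, Nfkbie, Relb and Tnfaip3. Ier3 was at least 2-fold below it at both times. Nfkbib, Nfkb2 and Rela were higher and Nfkb1 was lower, each by less than 2-fold. Since each group has 1 library, no test between conditions was possible, and every 95% interval covers counting error only.

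Cells were barcodes with at least 15000 unique molecular identifiers (UMIs, each tagging 1 captured RNA molecule) and 1 to 20% mitochondrial UMIs. This gave 2187 cells in the control library, 1739 in the 3 h library and 2554 in the 6 h library, with 106842407 to 140321458 UMIs per library and medians of 43160 to 51726 UMIs per cell. Levels are UMIs summed over the cells of a library scaled to a library total of 1000000 (CPM). The libraries with cycloheximide had lower median mitochondrial shares, 3.52% at 3 h and 2.89% at 6 h, against 4.58% in the control, and the part of this in the ratios was not tested beyond the alternatives given at the end. Libraries shared 1 to 3 cell barcodes in pairs and 0 across all 3. All 12 embryonic stem cell markers were at 10 CPM or more in every library. They summed to 7442, 8379 and 7461 CPM (control, 3 h, 6 h, an order that triplets below keep). Most of each sum was Dppa5a (4771, 5327 and 5475 CPM). Other markers went either way, such as Utf1 (545, 501 and 329 CPM), Zfp42 (455, 592 and 240 CPM) and Nanog (123, 175 and 145 CPM). Of 9 immune markers, Ptprc had 1, 0 and 0 UMIs and Adgre1 had 0 in every library, while the list summed to 11.1, 14.0 and 16.5 CPM, mostly from Cd68. Itgam among them had 4, 66 and 205 UMIs. The 9 fibroblast markers summed to 3.43 to 4.38 CPM, with Col3a1, Lum and Postn at 0 everywhere, so these defining immune and fibroblast markers were at or near 0. Neuroectoderm and mesoderm markers (9 of 9 detected) summed to 88.2, 61.1 and 41.7 CPM, a difference that lay in Tubb3 (65.3, 35.1 and 18.6 CPM). The other 8 summed to 23.0, 26.0 and 23.1 CPM, and among them Mixl1 went the other way, with 0.601, 1.29 and 1.91 CPM, as did Mesp1, with 0.682, 1.17 and 2.54 CPM. Endothelial markers summed to 19.8, 23.7 and 32.8 CPM, mostly from Pecam1 (18.1, 22.1 and 31.4 CPM), with Emcn at 0 everywhere. Primitive endoderm markers summed to 29.9, 30.2 and 22.6 CPM, mostly from Lama1, and Sox7 among them had 5.55, 1.32 and 0.299 CPM. Markers of 2-cell-like cells summed to under 1 CPM in every library. The part of these lists in the results was not tested.

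Stretches near the starts of 5 members are shown because they hold matches to the kappaB motif, which the factor's own family is known to read. Nfkbia and Nfkbie, the 2 I-kappaB genes most above control, are printed at 250 bases. Ier3, which was lower after cycloheximide, also has a match. Binding was not measured, and the part of these matches in the levels was not tested. RefSeq windows on GRCm38.p6 (250 bases before and 50 after a start) were found for 7 of the 9 genes. The motif searched on both strands is the kappaB consensus, 10 bases long, with 3 G, a purine, 2 bases of any kind, 2 pyrimidines and a final pair of C. It was present in a window of 5 of the 7 genes (Nfkbia, Nfkbie, Nfkb2, Tnfaip3 and Ier3) and in none of those of Nfkbib and Rela. Of all 32851 windows 8.46% held a match, and of 27025 genes 9.55% had one in any window. A match is a description of the letters and not a bound site. The 250 bases before the start of Nfkbia lie at chr12:55492648-55492897 (minus strand) and those of Nfkbie at chr17:45555450-45555699 (plus strand), printed here 5′ to 3′ with matches on either strand in capitals.
Nfkbia: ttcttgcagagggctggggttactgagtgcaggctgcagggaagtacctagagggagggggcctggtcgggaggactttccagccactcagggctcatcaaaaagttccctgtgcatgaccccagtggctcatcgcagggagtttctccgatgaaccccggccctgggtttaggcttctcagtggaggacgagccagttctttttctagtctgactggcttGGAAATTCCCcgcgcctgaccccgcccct
Nfkbie: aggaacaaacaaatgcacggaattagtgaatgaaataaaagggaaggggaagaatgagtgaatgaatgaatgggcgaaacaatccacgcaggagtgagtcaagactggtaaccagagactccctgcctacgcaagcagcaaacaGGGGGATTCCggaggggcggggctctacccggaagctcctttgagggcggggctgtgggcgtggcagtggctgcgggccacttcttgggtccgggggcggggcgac

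For the other 3 genes with a match, 30 bases around 1 match are given. The stretch of Nfkb2 is at chr19:46304688-46304717 (plus strand), that of Tnfaip3 at chr10:19015411-19015440 (minus strand) and that of Ier3 at chr17:35821611-35821640 (plus strand). Matches that overlap on the 2 strands are capitalised as 1 run in Nfkb2. The Nfkb2 and Tnfaip3 stretches lie inside the gene bounds of GENCODE M21, whose starts differ from the RefSeq ones used here.
Nfkb2: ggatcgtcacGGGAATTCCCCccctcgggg
Tnfaip3: gtgactggaatttccatcGGAAATCCCCct
Ier3: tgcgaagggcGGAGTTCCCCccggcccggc

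**Figure D1:**
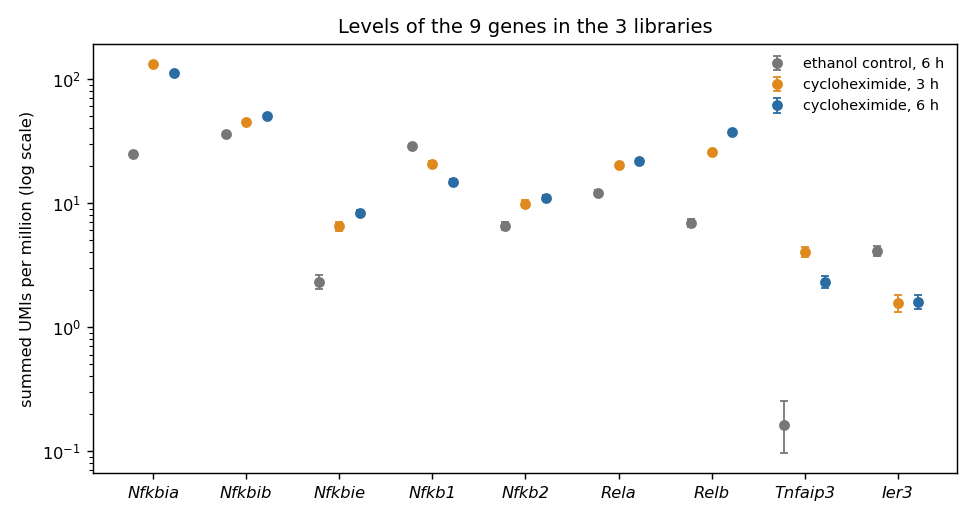
Level of each of the 9 genes (CPM, log axis) in the control library (grey), at 3 h (orange) and at 6 h (blue) of cycloheximide. Points are the 1 library per group and bars are exact 95% Poisson intervals, which cover counting error only. Nfkbia stood at 24.9 CPM in the control and above 100 CPM with cycloheximide, and Ier3 and Nfkb1 were highest in the control.

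Nfkbia (ENSMUSG00000021025, chr12:55489410-55492647, minus strand of GRCm38) encodes I-kappaB alpha, the inhibitor that is destroyed and resynthesised in each round of signalling. Control cells had 24.9 CPM (2774 UMIs), cells treated for 3 h had 131 CPM (13970 UMIs) and cells treated for 6 h had 110 CPM (15502 UMIs). Both libraries with cycloheximide were far above the control, and the 3 h library was the highest. The level at 3 h was 5.25 times the control (95% interval 5.04 to 5.47) and at 6 h 4.44 times (4.26 to 4.62). Between the times the log2 ratio was -0.24 (-0.28 to -0.21). Of the 12252 genes averaging 1 CPM or more, 79 had a higher log2 ratio than Nfkbia at 3 h and 280 at 6 h.

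Nfkbie (chr17:45555703-45563169, plus strand) encodes I-kappaB epsilon and was under 10 CPM in every library. Its UMIs numbered 257 (2.31 CPM), 690 (6.46 CPM) and 1164 (8.30 CPM). The order was control, 3 h, 6 h, with intervals that did not overlap. The 3 h level was 2.80 times the control (2.42 to 3.24) and the 6 h level 3.59 times (3.14 to 4.13).

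Nfkbib (chr7:28758251-28767512, minus strand), which encodes I-kappaB beta, differed least among the inhibitors. Its levels were 35.7, 44.6 and 49.8 CPM, which gave log2 ratios of 0.32 (0.26 to 0.38) and 0.48 (0.42 to 0.54). The gene overlaps Ccer2 and Sirt2 on the other strand, and how reads there were assigned is not given in the sources used here. The small difference between the times (log2 0.16, interval 0.11 to 0.21) turned to -0.0021 when the mean number of UMIs per cell was used in place of CPM.

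Tnfaip3 (chr10:19000910-19015657, minus strand) encodes A20, which removes activating ubiquitin chains upstream of I-kappaB kinase. It was barely detected in the control, with 18 UMIs (0.162 CPM), while the 3 h library had 431 UMIs (4.03 CPM) and the 6 h library 325 UMIs (2.32 CPM). Its level was the highest at 3 h, and no 2 of the 3 intervals overlapped. The 3 h library stood at 24.3 times the control (15.6 to 42.5) and the 6 h library at 14.0 times (8.93 to 24.5), with intervals that are wide because of the few control UMIs. Of the 12252 genes averaging 1 CPM or more, 6 had a higher log2 ratio at 3 h and 36 at 6 h. Tnfaip3 passed this floor only through the libraries with cycloheximide. A high place was thus built in, and nothing is read from it. From 3 h to 6 h the log2 ratio was -0.80 (-1.01 to -0.59).

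Among the subunits, Relb stood out (chr7:19606217-19629438, minus strand). RelB pairs with p52 in the non-canonical branch of the pathway. The control had 6.91 CPM (770 UMIs), the 3 h library 25.6 CPM (2740 UMIs) and the 6 h library 37.5 CPM (5269 UMIs). The control library was lowest and the 6 h library highest, with no overlap of intervals. The level after 3 h was 3.71 times the control (3.43 to 4.03) and after 6 h 5.43 times (5.04 to 5.87). The log2 ratio between the times was 0.55 (0.48 to 0.62). Relb is under 10 CPM in the control and passed the floor on the mean of 10 CPM only through the libraries with cycloheximide.

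Rela (chr19:5637483-5648130, plus strand) encodes p65, the main activating subunit. Its levels were 12.1, 20.2 and 21.6 CPM. Both later libraries were above the control and their own intervals overlapped. The log2 ratios were 0.75 (0.65 to 0.85) and 0.84 (0.75 to 0.93), and they reached 1.02 at 3 h with the mean number of UMIs per cell and 1.04 at 6 h in the shallowest of 3 depth classes of cells, past 2-fold. The difference between the times of 0.09 (0.01 to 0.17) became -0.068 with UMIs per cell.

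Nfkb2 (chr19:46304320-46312385, plus strand) encodes p100, the precursor of p52. Its UMIs numbered 725 (6.51 CPM), 1052 (9.85 CPM) and 1551 (11.1 CPM). The control was lowest, and the log2 ratios of 0.60 (0.46 to 0.74) and 0.76 (0.64 to 0.89) were short of 2-fold. It overlaps Psd and AC114539.1 on the other strand.

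Nfkb1 (chr3:135584655-135691547, minus strand) encodes p105, the precursor of p50, and was the only subunit with a lower level after cycloheximide. The control had 28.7 CPM (3199 UMIs), the 3 h library 20.7 CPM (2215 UMIs) and the 6 h library 14.8 CPM (2076 UMIs). The control was highest and the 6 h library lowest, without overlap. Against control the 3 h ratio was -0.47 on the log2 scale (-0.55 to -0.39) and the 6 h ratio -0.96 (-1.04 to -0.88). With TMM factors the 6 h value was -1.12, and it was also -1.12 with median-of-ratios size factors, both past 2-fold. Gm43430 overlaps it on the same strand, so part of its reads may be uncertain.

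Ier3 (chr17:35821684-35822923, plus strand) is an immediate early gene whose product is known to interact with NF-kappaB signalling and cell survival. Its UMIs numbered 456 (4.09 CPM), 166 (1.55 CPM) and 223 (1.59 CPM). The control was well above both other libraries, which did not differ beyond counting error: the log2 ratio between them was 0.03 (-0.26 to 0.33). The level after 3 h was 0.380 times the control (0.316 to 0.455) and after 6 h 0.389 times (0.329 to 0.457). Only 38 of the 12252 genes had a lower log2 ratio at 3 h, and 166 at 6 h.

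**Figure D2:**
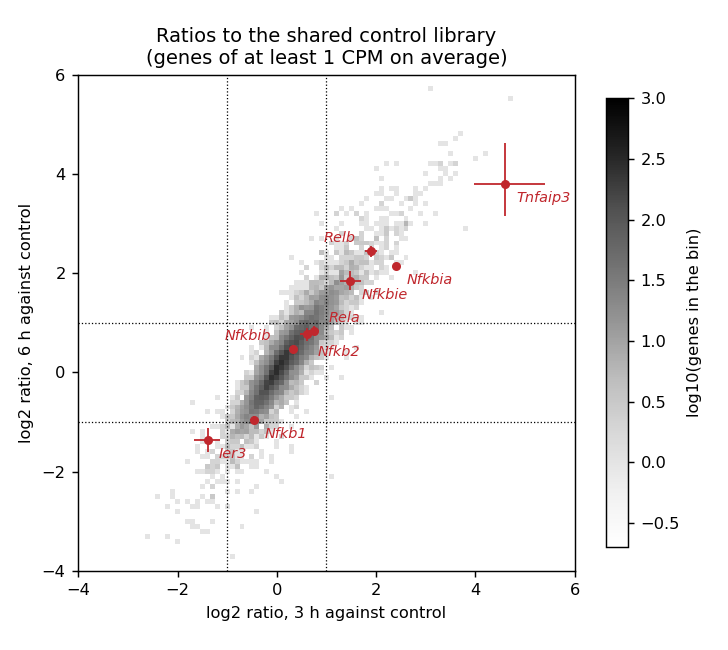
Log2 ratio of each gene at 3 h (horizontal) and 6 h (vertical) against the 1 control library that both share; grey bins count the 12252 genes of at least 1 CPM on average, and red points are the 9 members with 95% counting intervals. Dotted lines mark 2-fold. Nfkbia, Nfkbie, Relb and Tnfaip3 lie past 2-fold higher on both axes, and Ier3 past 2-fold lower on both.

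Set against all genes, 4 of the 9 members were 2-fold or more higher at 3 h, where the same held for 7.22% of the 12252 genes of at least 1 CPM, and 4 of 9 at 6 h, where it held for 13.8%. Lower by 2-fold or more was 1 of 9 at both times, against 0.857% and 3% of genes. At the 10 CPM floor, 5 members remained (Nfkbia, Nfkbib, Nfkb1, Rela and Relb), of which 2 were higher at each time, against 4.32% of 7608 genes at 3 h and 8.65% at 6 h. None of the 5 was lower at either time, against 0.513% and 2.41% of genes. Tnfaip3 passed the 1 CPM floor and Relb the 10 CPM floor only through the libraries where each is high, so both had to differ. The members were also chosen with earlier results of these data known. The counts at these floors are therefore given as a description and cannot be weighed against the shares of all genes. The 9 members had median log2 ratios of 0.75 (3 h) and 0.84 (6 h), and all 12252 genes of 0.14 and 0.22. No member differed 2-fold between 6 h and 3 h in either direction, a rare size of difference among all genes (higher 1.38% and lower 0.759% at the 1 CPM floor, higher 0.145% and lower 0.657% at 10 CPM). The 3 h and 6 h comparisons share the control library, so the same members passing in both is not a repeat.

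In single cells, each cell was thinned to 15000 UMIs so that depth was equal across libraries. Nfkbia was detected in 29.5% (27.6 to 31.5), 70.2% (67.9 to 72.3) and 67.8% (65.9 to 69.6) of thinned cells, and without thinning in 61.9%, 89.5% and 89.9%. The fraction of thinned cells with 5 or more Nfkbia UMIs was 0.0914%, 12.1% and 7.83%. Relb was found in 9.65%, 28.1% and 37.8% of thinned cells, and unthinned in 27.0%, 63.4% and 69.7%. Nfkbie was found in 3.80%, 8.68% and 11.8% of thinned cells, and unthinned in 10.6%, 28.6% and 29.3%. All 3 genes were detected in more cells in both libraries with cycloheximide.

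Tnfaip3 stayed in few cells, at 0.0914%, 4.77% and 3.64% thinned (0.823%, 17.9% and 10.7% unthinned). Nfkb1 was detected in 33.5%, 25.5% and 19.2% of thinned cells (69.0%, 63.7% and 50.1% unthinned), and Ier3 in 6.45%, 2.19% and 2.74% (17.4%, 8.57% and 7.95%). Shares of thinned cells for Rela were 15.5%, 25.8% and 26.8% (41.4%, 63.6% and 62.2% unthinned), and for Nfkbib 40.7%, 46.8% and 51.4% (76.1%, 85.6% and 85.7%). Those for Nfkb2 were 9.05%, 12.2% and 13.7% (27.0%, 37.8% and 37.9%). In both libraries with cycloheximide 7 of the 9 members had a higher share than the control, and the exceptions were Nfkb1 and Ier3. A higher share was also found for 64.9% of the 12252 genes averaging 1 CPM or more, at either time, so most genes went this way too and nothing is read from the count of 7. Free RNA, measured in barcodes with 10 to 100 UMIs, moved the same way as the cells for Nfkbia, at 20.8, 106 and 77.3 CPM. Free RNA of Relb was 4.72, 35.7 and 39.3 CPM. That of Tnfaip3 was 0, 7.26 and 3.32 CPM and rested on 0, 24 and 13 UMIs, where the interval of the 0 count reached 1.03 CPM. At 3 h free RNA lay above the cells for Relb (29.6 to 42.8 against 24.7 to 26.6 CPM). The same held for Tnfaip3 (4.65 to 10.8 against 3.66 to 4.43 CPM). At 6 h the intervals of free RNA and cells overlapped for both genes. A cell type that should lack these genes was not present for comparison, and the part of free RNA in the shares was not tested.

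**Figure D3:**
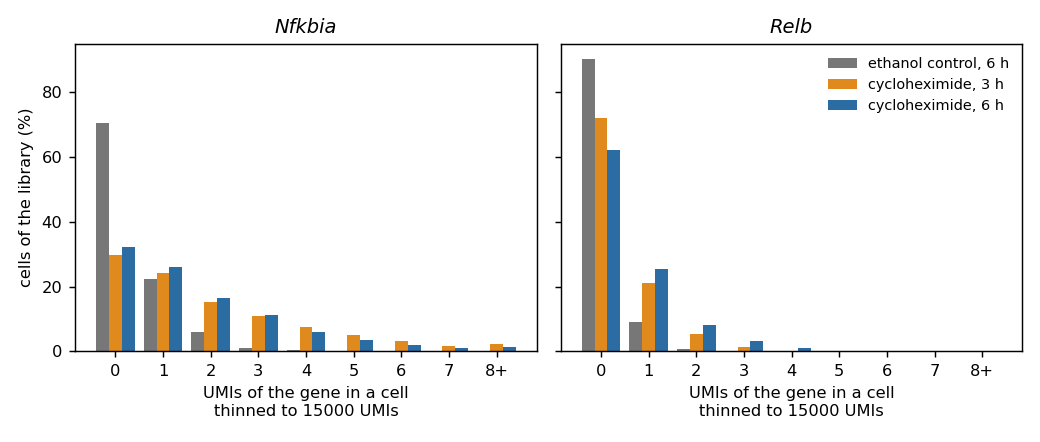
Percent of cells of each library (vertical) by the number of UMIs of Nfkbia (left) and Relb (right) in a cell thinned to 15000 UMIs (horizontal; the last bar is 8 or more), in grey for the control, orange for 3 h and blue for 6 h. Cells without an Nfkbia UMI made up 70.5% of the control, and the bars at 2 or more UMIs are higher in both libraries with cycloheximide.

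The UMIs of Nfkbia were unevenly spread over cells. Spread was measured as the squared coefficient of variation beyond what counting alone gives (variance less mean, divided by the mean squared). Genes averaging 0.2 UMIs or more in thinned cells were compared. For Nfkbia it was 0.556, 0.635 and 0.663, where the medians of 6056 genes were 0.0735, 0.0754 and 0.0775. Only 2.56%, 2.31% and 2.44% of these genes had a higher value. With another random seed the 3 values were 0.698, 0.712 and 0.731, so the spread was high in every library and the order between libraries is not read. The values of Relb, 0.600 at 3 h and 0.560 at 6 h, were of similar size, and its control level was under the floor. Rela, also under the floor in the control, had -0.069 at 3 h and 0.199 at 6 h. The other seed was not applied to the spread of Relb or Rela. Nfkbib (0.029, 0.013 and 0.084) and Nfkb1 (0.087, 0.138 and 0.190) lay far below Nfkbia, and with the other seed Nfkb1 was at -0.021 in the 3 h library, so their order is not read.

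Across cells of 1 library, genes that were high together with Nfkbia were looked for after the levels had been seen, as a description without a test. In the control no gene of 6379 had a Pearson r above 0.1 with Nfkbia, where the gene is sparse. At 3 h the highest were Junb (r = 0.41), a subunit of the AP-1 factor, Icam1 (0.34), an adhesion molecule and known NF-kappaB target, and G3bp2 (0.26), a stress granule protein, over 1739 cells and 6846 genes. At 6 h they were Junb (0.38), Icam1 (0.35) and Relb (0.30), over 2554 cells and 6911 genes. The cells of a library share its preparation, and each was thinned to the same depth. At a greater thinning depth the r of Nfkbia with Icam1 was 0.46 at both times and with Relb 0.30 at 3 h and 0.36 at 6 h. The r of Nfkbia with total UMIs lay between -0.018 and 0.052 and with the mitochondrial share between -0.048 and 0.022.

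Sorting thinned cells at 6 h by their Nfkbia UMIs shows the same relation in shares. Relb was detected in 24.4% of 823 cells with 0 Nfkbia UMIs (21.5 to 27.5), 41.2% of 1531 cells with 1 to 4 (38.7 to 43.7) and 67.5% of 200 cells with 5 or more (60.5 to 73.9). Nfkbie was detected in 6.93%, 12.6% and 25.5% of these cells. Rela differed less, in 206 of the 823 cells (22.1 to 28.1%), 27.0% (24.8 to 29.3) and 33.0% (26.5 to 40.0). At 3 h Relb was detected in 17.3%, 30.5% and 42.9% of the 519, 1010 and 210 cells of the same classes, and Rela in 26.2%, 26.3% and 21.9%. In the control Relb was detected in 9.41% of cells without and 10.2% of the 644 cells with 1 to 4 Nfkbia UMIs. Pou5f1, a defining stem cell gene, was detected in 99.757% to 100% of cells in the 3 h and 6 h classes. The 12 stem cell markers had r between -0.042 and 0.070 with Nfkbia in the 3 libraries.

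**Figure D4:**
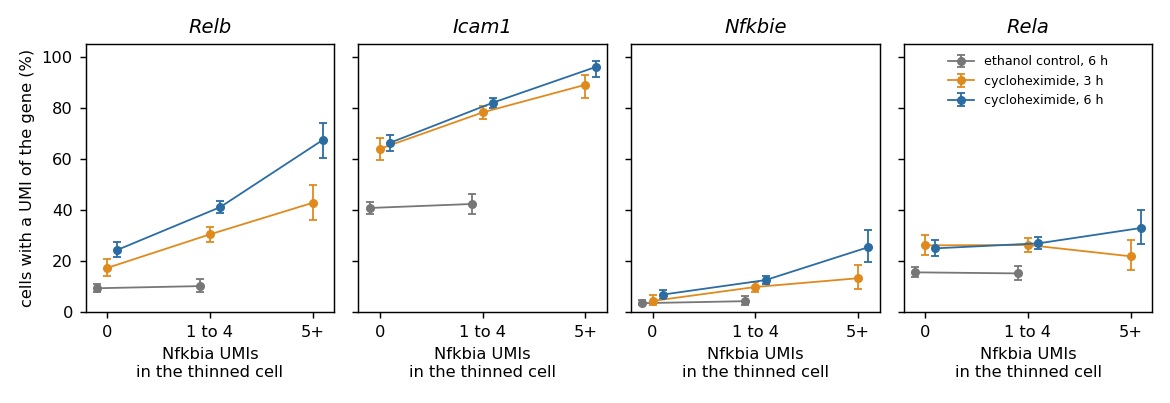
Percent of thinned cells with a UMI of Relb, Icam1, Nfkbie and Rela (vertical) by the number of Nfkbia UMIs in the same cell (horizontal), for the control (grey), 3 h (orange) and 6 h (blue), with exact 95% binomial intervals. Relb at 6 h goes from 24.4% to 67.5%, while Rela stays between 21.9% and 33.0% in both libraries with cycloheximide; classes of under 50 cells are not drawn.

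The genes around the 9 members in the pathway were followed in 6 lists, chosen like the members with earlier results of these data known. The lists held 103 genes found, of which 44 averaged 10 CPM or more. Of the 44, 3 were 2-fold or more higher at 3 h and at 6 h (Traf2, Icam1 and Gadd45b), 0 were lower at 3 h and 1 was lower at 6 h (Ripk1). The 3 higher genes are 6.82% of the 44, between the 4.32% (3 h) and 8.65% (6 h) of all genes at this floor. The 1 lower gene is 2.27%, near 2.41%. Their median log2 ratios were 0.15 and 0.21, and those of the 7608 genes at this floor 0.11 and 0.17. Among 2 receptor adaptors above the floor, Traf2, an adaptor of tumour necrosis factor receptors, had 6.95, 20.3 and 27.3 CPM. It passed the floor only through the libraries with cycloheximide. None of the 8 kinase genes was 2-fold higher, and Ripk1, the receptor-interacting kinase, had 13.5, 10.3 and 6.68 CPM. Ripk1 was under 10 CPM at 6 h and passed the floor on the mean only through the libraries where it is higher. Nothing is therefore read from the count of lower genes.

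The genes of the catalytic subunits of I-kappaB kinase were above the control by less than 2-fold. Chuk, which encodes IKK alpha, had log2 ratios of 0.22 and 0.49, and Ikbkb, which encodes IKK beta, 0.16 and 0.28. None of 15 genes for ubiquitin enzymes and deubiquitinases passed 2-fold, with medians of -0.0069 and 0.12, and none of 8 genes of the I-kappaB destruction machinery, with medians of 0.010 and 0.14. The other Rel and I-kappaB family genes had 6 above the floor and 0 past 2-fold. Of 5 target genes above the floor, Icam1 had 36.8, 120 and 136 CPM. Gadd45b, a stress-induced regulator of growth arrest, had 12.7, 91.6 and 150 CPM.

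Some of the list genes under the floor also differed, and these were picked after their values were seen. Rel, which encodes the subunit c-Rel, had 177, 458 and 431 UMIs (1.59, 4.29 and 3.07 CPM). Nfkbid, which encodes a nuclear I-kappaB, had 337, 98 and 64 UMIs and was lower than the control at both times. Zc3h12a, a gene of the target list and an RNase that degrades inflammatory mRNAs, had 1032, 255 and 184 UMIs. It was also lower than the control at both times. The receptor gene Tlr2 had 361, 1139 and 1488 UMIs (3.24, 10.7 and 10.6 CPM), so its 3 h and 6 h levels were alike. Tlr4 and the cytokine genes Tnf, Il1b and Ccl5 had 0 UMIs in every library. A count of 0 allows up to 0.0281 CPM each (3 counts of a library's total).

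Genes outside the list with the most similar pair of ratios were sought for the 2 members of at least 10 CPM past 2-fold, by the distance over the 3 h and 6 h log2 ratios among 5565 genes of at least 20 CPM. The nearest to Nfkbia were Arrdc3 (distance 0.100), an arrestin-like adaptor, Id2 (0.212), an inhibitor of helix-loop-helix factors, and Ccn2 (0.251), a secreted matrix-associated protein. Arrdc3 had 13.8, 70.7 and 65.2 CPM. The nearest to Relb were H1f0 (0.063), a linker histone, Gm47283 (0.082) and Eprn (0.096). H1f0 had 15.2, 58.8 and 81.2 CPM. Arrdc3, Ccn2, H1f0 and Eprn were under 20 CPM in the control (13.8, 7.20, 15.2 and 14.1 CPM). They passed the floor on the mean only through the libraries with cycloheximide. Likeness here rests on 3 libraries, and 2 genes lay within 0.25 of Nfkbia against 7 of Relb.

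**Figure D5:**
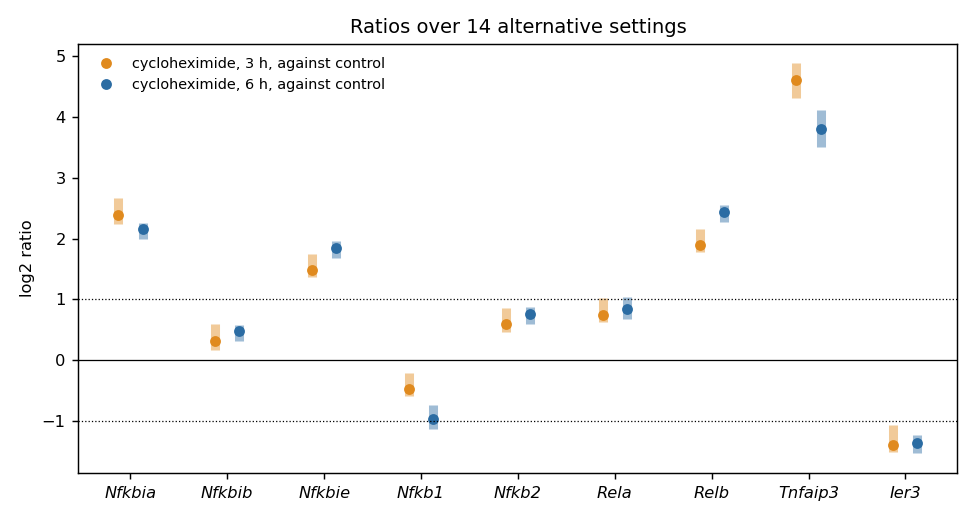
Log2 ratio of each member, 3 h (orange) or 6 h (blue) over control; points are the values reported and bars span the lowest to the highest of 14 alternative settings. Dotted lines mark 2-fold. No bar crosses 0, and the bars of Nfkb1 and Rela reach past a 2-fold line.

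The direction of all 9 members against control held under the 14 alternatives at both times. Nfkbia ranged from 2.25 to 2.66 on the log2 scale at 3 h and from 1.98 to 2.26 at 6 h. Relb ranged from 1.78 to 2.16 and from 2.28 to 2.55, and Ier3 from -1.51 to -1.06 and from -1.53 to -1.22. CPM placed the median of the 7608 genes at 0.11 and 0.17, TMM factors at 0.00023 and 0.00066, and UMIs per cell at 0.38 and 0.27.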

How the data were processed

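UMI counts per gene and barcode were used as deposited. Per the submitters' processing notes they came from Cell Ranger 4.0.0 and mm10; the annotation is not given in the sources used here. Each matrix lists 6794880 barcodes, so cells were taken as barcodes with at least 15000 UMIs and 1 to 20% mitochondrial UMIs, which left out 62, 1 and 8 barcodes under 1% (control, 3 h, 6 h) and 0 above 20%. No doublets were removed; cells above 2 times the median UMIs were left out in an alternative. Counts were summed per library and divided by the library's cell UMIs. Ratios used a prior of 0.5 counts. Intervals are exact 95% Poisson (levels), conditional binomial (ratios) and Clopper-Pearson (shares), and with 1 library per group cells were not treated as replicates. The steps were tested on simulated data. Named by rule were the 9 members, pathway genes past 2-fold averaging at least 10 CPM and the 3 nearest genes of members past 2-fold. Chuk and Ikbkb are named outside this rule. So are markers, the genes highest with Nfkbia, flagged genes and genes picked after their values were seen. The members and lists were chosen with earlier results of these data known. Positions are GENCODE M21 (GRCm38), where 32158 of 32285 identifiers matched; 1 listed symbol, Skp1, was not found. Promoter windows are RefSeq's; the windows of Nfkb1 and Relb were not analysed here. Alternatives were other scalings, cell limits, depth classes, floors, priors, thinnings and free RNA subtraction. The floor of 1 CPM, another thinning seed for the spread and the co-variation across cells were added after seeing the data. Python 3.11.15 with numpy 2.4.6, scipy 1.17.1, pandas 2.3.3 and matplotlib 3.10.9, and R 4.3.3 with edgeR 4.0.16 (TMM factors) and DESeq2 1.42.0 (size factors) were used.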

Additional observations from a re-analysis of the deposited data

Results flagged for a closer look

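In 3 pathway genes of at least 10 CPM the ratio to the shared control had opposite signs at 3 h and at 6 h, with both counting intervals on 1 side of 0. Otud7b had log2 ratios of -0.10 and 0.12, Nedd8 of -0.024 and 0.14, and Bcl2l1 of 0.24 and -0.13. With CPM the medians of the 7608 genes at this floor were 0.11 and 0.17. Signs of ratios this small depend on the common scale, and those under other scalings are not given here. How many of all genes had opposite signs is not given either, so nothing is read from the count of 3. The change from 3 h to 6 h was not tested, since each group has 1 library. None of the 9 members had opposite signs.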

How the results depend on the processing

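The counts of all 9 members past 2-fold against control stayed within 1.5 times under 14 alternatives, except that 2 were lower at 6 h in place of 1 with TMM factors and with median-of-ratios size factors (Nfkb1 joined Ier3). Of members of at least 10 CPM, 2 were higher at each time with the main settings. Rela joined them at 3 h with UMIs per cell (1.02) and at 6 h in the shallowest depth class (1.04). With TMM factors or with size factors 1 was lower at 6 h. With no floor 4 were higher and 1 lower at each time. With a floor of 50 CPM, which only Nfkbia passed, 1 was higher at each time. Without a floor, of the 103 other pathway genes found, 19 were higher and 2 lower at 3 h, and 28 and 5 at 6 h. At 6 h against 3 h these were 7 and 2. The share over all genes without a floor is not given here, so nothing is read from these counts. In UMIs per cell, 6 h against 3 h turned to -0.0021 for Nfkbib, -0.068 for Rela and -0.068 for the members' median. Of all genes past 2-fold at 6 h against control, 78.2% were higher with CPM, 62.1% with TMM factors, 62.2% with size factors and 85.8% per cell; for 6 h against 3 h these were 18.0%, 12.5%, 12.7% and 4.88%. All genes past 2-fold at the 10 CPM floor (329 higher, 39 lower at 3 h; 658 and 183 at 6 h; 11 and 50 between the times) moved over 1.5 times per cell at 3 h (710, 21) and between the times (4, 78), and with TMM factors and size factors for lower at 6 h (285, 284). They also moved without a floor (4062, 1457; 6614, 1619; 3360, 1417) and at 50 CPM (81, 8; 164, 44; 2, 17). The settings differ in the genes admitted or in the common scale, and why the counts moved was not tested. No paired analysis was possible because each group has 1 library. One library per group limits every comparison, and the few UMIs of Tnfaip3, Ier3 and Nfkbie limit theirs most.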
